A study of Mus musculus with 38 samples.

Results

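The comparison described here is between 2 doses of Kal-1, 75 and 20 micrograms, in mouse brown adipose tissue. Its members are the 6 HF75 and 6 HF20 arrays of Weeks 3, 6, 9, 12, 15 and 18, chosen by their labels, which are 12 of the 38 arrays of the series. All mice were C57BL/6J, weaned at 3 to 4 weeks of age, and both groups ate a high fat diet rich in sucrose, with 60% of its calories from fat. Kal-1, a plant-based formulation given in water, was added at 20 micrograms in HF20 and at 75 micrograms in HF75. Each group began with 30 animals, of which 5 were taken every 3 weeks. The labels give 1 array per group and week, and do not say whether an array holds RNA of 1 animal or of a pool. The weeks therefore serve as replicates, and p values measure the spread between weeks. LFC arrays (mice on a normal diet with 10% of calories from fat, without Kal-1) of the same weeks were used for reference. Together with the HFC arrays (the same high fat diet without Kal-1) and the HF5 arrays (that diet with 5 micrograms of Kal-1), they also entered the fits over 30 or 29 arrays in the closing section.

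Brown fat burns fatty acids to make heat. Noradrenaline acts on the beta-3 receptor of brown adipocytes, stored triglyceride is broken down, and its fatty acids are oxidised in abundant mitochondria whose proton gradient is dissipated by the uncoupling protein Ucp1. The tissue also makes new fatty acids from glucose, takes up glucose through Slc2a4 (GLUT4), and is densely supplied with vessels.

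The 2 groups were hybridised at different brightness. Brightness was taken as the 75th percentile of an array's processed signal. Its lowest, median and highest values were 43.2, 709 and 857 intensity units in HF20, and 35.1, 94.4 and 871 in HF75. Arrays above 600 units are called bright here and the others dim. By this boundary 4 HF20 arrays (Weeks 3, 6, 12 and 15) and 1 HF75 array (Week 3) were bright. HF75 was dimmer than HF20 in 5 of 6 weeks, by 1.41 ± 1.42 (SD, n = 6 weeks) on the log2 scale (exact sign-flip test over weeks, two-sided, p = 0.0625; the smallest p it allows is 0.03125). Bright arrays had 472 to 629 saturated spots and dim ones 9 to 66. Both arrays of a week were scanned on the same day in all 6 weeks, and shared a slide in 1 week. Weeks 6, 12 and 15 thus set a bright HF20 array against a dim HF75 array, in Weeks 9 and 18 both arrays were dim, and in Week 3 both were bright.

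**Figure D1:**
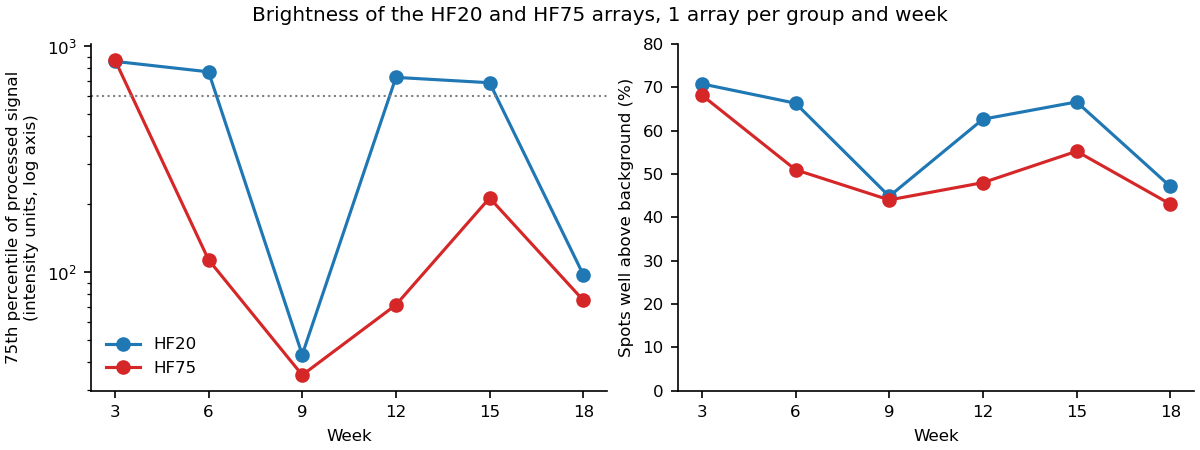
Each HF20 (blue) and HF75 (red) array by week, with the 75th percentile of its processed signal in intensity units on a log axis (left, with the boundary of 600 units dotted) and the percent of spots well above background (right). HF75 lies below HF20 in 5 of 6 weeks on the left, and the percentile runs from 35.1 to 871 units in HF75.

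The array labelled HF75 of Week 3 went against its label of brown adipose tissue. Ucp1 had a log2 signal of -3.08 relative to the array's 75th percentile (the scale of all levels below), against 5.53 to 8.32 on the other 11 arrays. Cox8b, a brown fat form of a cytochrome oxidase subunit, was at -2.01 against 5.28 to 7.67. Zic1, a transcription factor typical of brown fat, was not well above background there. Both, like Wt1 and Tcf21 below, are members of the gene lists but were named after their values were seen. Of the 15 thermogenic effectors on the array, 13 had their lowest signal of the 12 on that array. Wt1 and Tcf21, which mark visceral white fat, were at 0.54 and -1.23. Neither was well above background on any of the other 11 arrays. They belong to a list of 12 white adipocyte markers, of which 5 had their highest signal of the 12 arrays there. Sfrp5 had its lowest there (-5.66), and Lep, Retn, Cfd, Nnmt, Adipoq and Hoxc8 lay within the range of the other 11. Msln and Krt18, chosen after their values were seen and known from mesothelial and other epithelial cells, were at 2.51 and 1.92 against at most -4.42 and -1.46. Results without Week 3 are therefore given beside those of all 6 weeks.

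Across 16818 genes tested, 4024 (23.9%) differed between HF75 and HF20 with the week as a block (limma, adjusted p under 0.05): 1668 (9.92%) were higher in HF75 and 2356 (14%) lower. Among the gene lists examined, those of mitochondrial energy metabolism, fat handling and heat production had members that fell, and those of immediate early and endothelial genes had members that rose. Without Week 3, 839 genes passed, 205 (1.22%) higher and 634 (3.77%) lower, and 789 of these were among the 4024. All 839 lay just under the threshold, as the smallest adjusted p was 0.0483 (limma). In Weeks 9 and 18 alone, where both arrays were dim, 0 genes passed (limma, unadjusted p under 0.05 in 1395, where 841 would be 5% of the genes), and adding the brightness class to the model also left 0 (2178 unadjusted). In bulk tissue, fewer cells of a type and less RNA per cell cannot be told apart.

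The size of the differences followed the week. In Weeks 6, 12 and 15 between 53.9% and 58.0% of genes were at least 2-fold apart, in Week 3 47.3%, and in Weeks 9 and 18 20.7% and 20.2%. Over the genes that passed, the median absolute difference was 2.18 on the log2 scale in Weeks 6, 12 and 15, and 0.64 in Weeks 9 and 18. In the LFC arrays of the same weeks, 3 of them bright and 3 dim, 98.2% of the genes that passed had opposite signs in bright minus dim and in HF75 minus HF20, beside 84.0% of all genes. Across all genes tested, the LFC bright minus dim difference had a correlation of -0.89 with the dose difference of Weeks 6, 12 and 15, and of -0.34 with that of Weeks 9 and 18, where genes share their arrays and are not independent replicates. The part of brightness in the dose difference was not tested beyond these values.

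**Figure D2:**
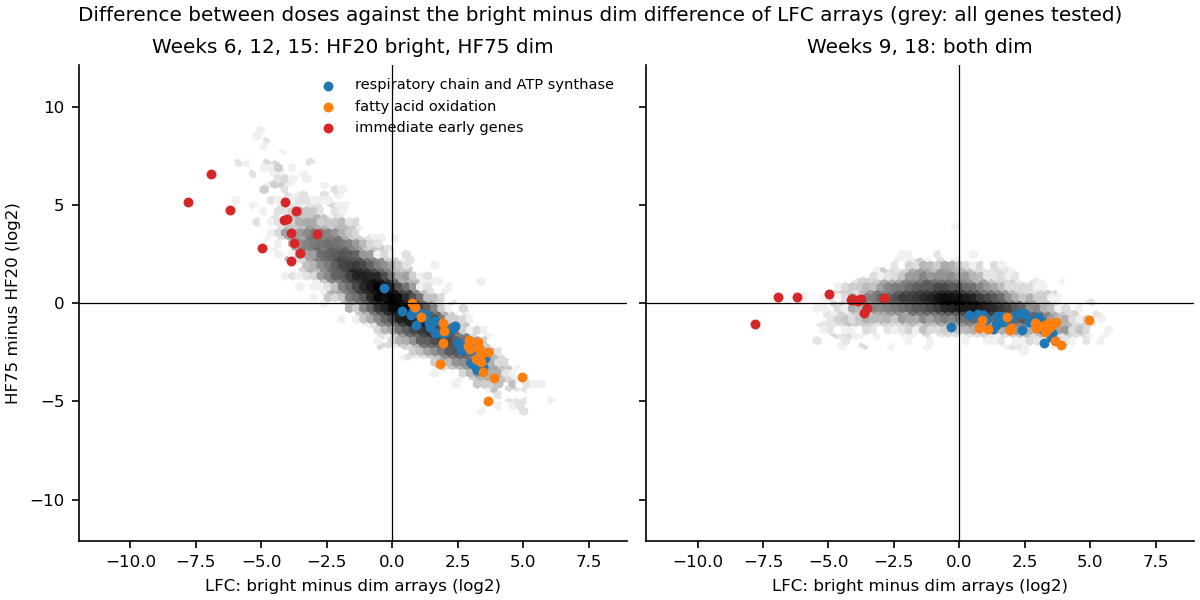
HF75 minus HF20 (log2, vertical axis) against the bright minus dim difference of the LFC arrays (log2, horizontal axis), for all 16818 genes tested (grey hexagons, darker for more genes on a log count) and for 3 lists in colour. The cloud slopes down in Weeks 6, 12 and 15 (correlation -0.89) and is flatter in Weeks 9 and 18 (-0.34).

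The effectors of heat production were lower in HF75. Of 14 tested, 10 fell (71.4%, beside 14% of all genes) and 0 rose (limma, adjusted p under 0.05). The median difference was -2.87 (all genes 0.17). Without Week 3, 6 fell, beside 3.77% of all genes, with a median of -2.44. Ucp1 itself was at 6.28, 6.58 and 8.32 (lowest, median and highest) in HF20 and at -3.07, 6.02 and 6.96 in HF75, a difference of -2.25 ± 1.14 (SE) that did not pass (limma, adjusted p = 0.161). It was lower in HF75 in 6 of 6 weeks, by -0.83 without Week 3 (adjusted p = 0.0816), and its spot was saturated on 4 HF20 arrays. A saturated spot gives only a lower limit of its level. Where HF20 arrays were saturated and HF75 arrays were not, the drop given here is thus a minimum as far as saturation goes. The words "at least" before a drop below mean only this, and drops in single weeks could be smaller. A drop over all 6 weeks still includes Week 3 and the weeks of unequal brightness. The groups overlapped with Week 3 and without it.

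Dio2, which makes active thyroid hormone inside the brown adipocyte, was at -1.78, 0.77 and 3.64 in HF20 and at -4.20, -2.13 and 0.17 in HF75. It fell by 3.12 ± 0.78 (SE; limma, adjusted p = 0.0298), by 2.62 without Week 3 (adjusted p = 0.069). Ppargc1a, the coactivator that drives mitochondrial biogenesis, was at 0.09, 2.22 and 3.88 in HF20 and -3.18, -1.16 and 0.36 in HF75. It fell by 3.25 (limma, adjusted p = 0.0185), and it was lower in HF75 in 6 of 6 weeks, by -6.10 in Week 3. Ucp3 (-4.25) and the acyl-CoA thioesterase Acot11 (-3.87) had the smallest p values of the list. Every HF75 level of Ucp3 was below every HF20 level, with 1 of 6 HF75 arrays well above background. With the lowest signal well above background of each array as a floor, the Ucp3 difference was -3.76. Elovl3, which lengthens fatty acids in brown fat, fell by 1.63 and had its largest weekly difference, -3.17, in Week 12.

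Among 13 transcriptional regulators of brown fat tested, 5 fell (38.5%, beside 14% of all genes) and 0 rose. The 5 were Ppara, Cebpa, Ebf2, Cebpb and Esrra. Ppara, the receptor that switches on fatty acid oxidation, was at 0.88, 4.70 and 5.47 in HF20 and -4.02, -0.14 and 1.21 in HF75. It fell by 4.55 ± 0.92 (SE; limma, adjusted p = 0.0194), by 5.38, 4.98 and 5.32 in Weeks 6, 12 and 15 and by 0.80 and 2.11 in Weeks 9 and 18. Cebpa, an adipocyte differentiation factor, fell by 3.30 with no overlap between the groups (HF20 0.52 to 4.17, HF75 -1.59 to 0.33). Ebf2, a brown fat identity factor, fell by 1.95. Prdm16, which also sets brown identity, had a difference of 0.47 with an adjusted p of 0.167 (limma), at 1.01 to 1.85 in HF20 and 1.48 to 2.25 in HF75.

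The chain from noradrenaline to fatty acids was lower as well. In the list of adrenergic signalling and lipolysis 12 of 17 genes fell (70.6%, beside 14% of all genes) and 0 rose. Of these 17, 9 had a saturated spot on at least 1 array, and 5 of the other 8 fell. Adrb3, the beta-3 receptor, was at 1.61, 5.02 and 6.40 in HF20 and at 0.26, 1.49 and 2.18 in HF75. It fell by 3.09 ± 0.48 (SE; limma, adjusted p = 0.0174), by 3.11 without Week 3, and by 1.56 and 1.35 in Weeks 9 and 18. Plin1, which coats the lipid droplet, fell by 3.29 with no overlap (HF20 3.25 to 6.98, HF75 1.86 to 3.07), and its spot was saturated on 4 HF20 arrays. Lipe, hormone-sensitive lipase, had a difference of -1.81 that lay at the threshold (limma, adjusted p = 0.0509), with differences of 0.18 and 0.02 in Weeks 9 and 18.

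**Figure D3:**
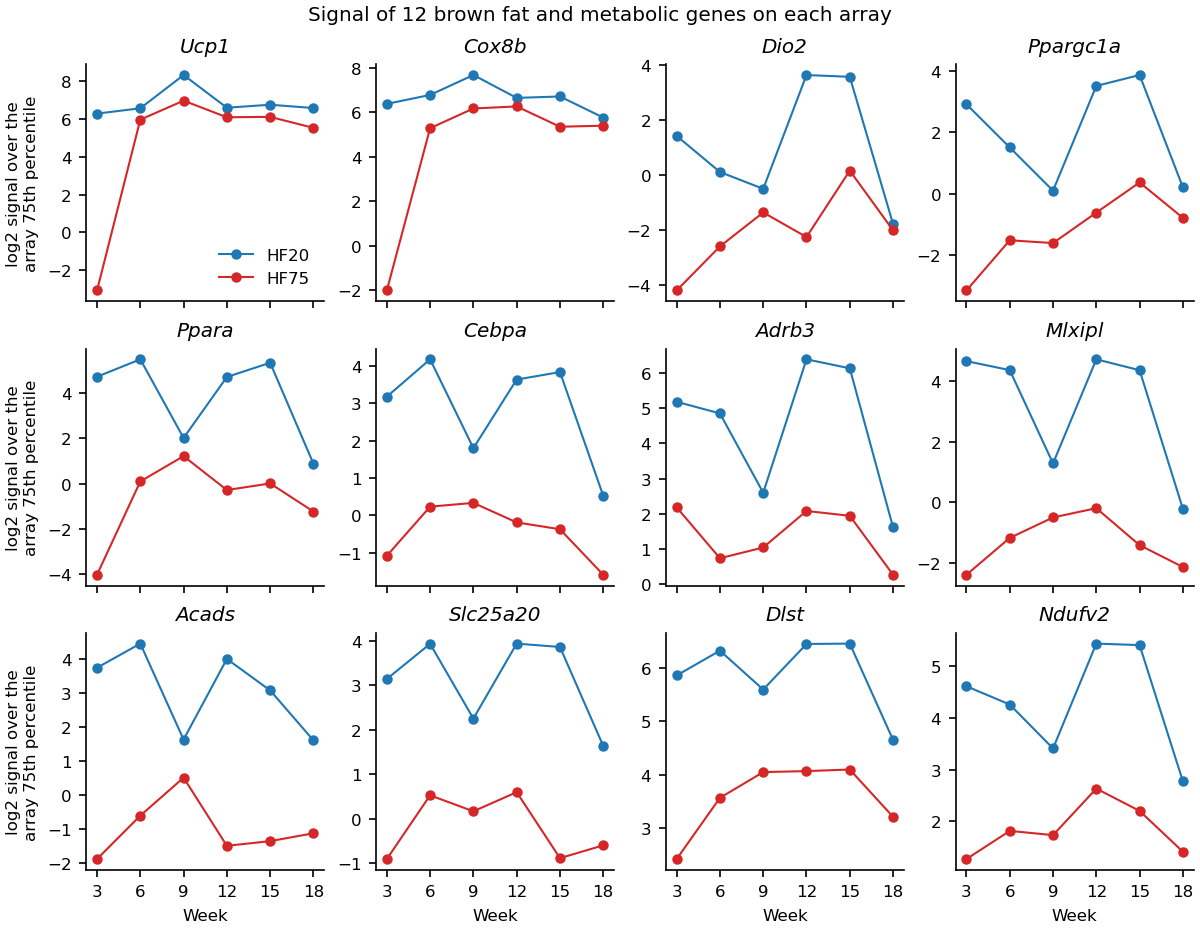
Log2 signal relative to the array's 75th percentile for 12 genes on each HF20 (blue) and HF75 (red) array, by week. For most genes the gap is wide in Weeks 3, 6, 12 and 15 and narrow in Weeks 9 and 18, when the HF20 array was dim; Ucp1 and Cox8b dropped on the Week 3 array of HF75.

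The list of lipogenesis and triglyceride synthesis had 14 of 19 genes lower and 1, Elovl5 (1.32), higher, with a median of -2.26. Together 78.9% passed, beside 23.9% of all genes. Mlxipl (ChREBP), the glucose-sensing factor that turns on lipogenic genes, was at -0.22, 4.37 and 4.73 in HF20 and at -2.40, -1.30 and -0.20 in HF75. It fell by 4.51 ± 0.73 (SE; limma, adjusted p = 0.0174), by 1.79 and 1.93 in Weeks 9 and 18. Thrsp, a lipogenic gene induced by thyroid hormone, fell by at least 2.26 over all weeks, and by 1.67 in Weeks 9 and 18. Its groups did not overlap (HF20 5.88 to 6.71, saturated on 4 arrays, HF75 2.06 to 5.42). Scd1 (stearoyl-CoA desaturase, saturated on 2 HF20 arrays) fell by at least 2.69 and Acly (ATP citrate lyase) by 2.18. Fasn, fatty acid synthase, had a difference of -1.09 (limma, adjusted p = 0.055), with -1.78 in Week 3, -1.60 in Week 9 and -2.20 in Week 18. Its spot was saturated on the 4 bright HF20 arrays, so its differences in Weeks 3, 6, 12 and 15 are limits. Dgat2, which makes triglyceride, fell by at least 2.03, being saturated on 4 HF20 arrays.

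The cholesterol list was mixed, with 8 of 19 genes lower, 1 higher (Stard4, 1.60) and a median of -0.66. Together 47.4% passed, beside 23.9% of all genes. Fdft1 (squalene synthase) fell by 3.05 with no overlap, and Hmgcs1 by 1.09. Sqle, squalene epoxidase, had a difference of -0.28 with an adjusted p of 0.539 (limma).

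Fatty acid oxidation was lower in 18 of 20 genes (90%, beside 14% of all genes) and higher in 0, with a median of -2.15. Of the 20 genes, 13 had a saturated spot on at least 1 array, and the 7 without one all fell, with a median of -2.94. Slc25a20, which carries acylcarnitines into the mitochondrion, was at 1.64, 3.50 and 3.94 in HF20 and at -0.90, -0.21 and 0.60 in HF75, with no overlap. It fell by 3.31 ± 0.39 (SE; limma, adjusted p = 0.0174), by 2.08 and 2.23 in Weeks 9 and 18. Acads, the short-chain acyl-CoA dehydrogenase, fell by 4.08 (HF20 1.60 to 4.44, HF75 -1.89 to 0.50), and Cpt1b by 3.14. Acsl1 and Acadm, both saturated on 4 HF20 arrays, fell by at least 2.14 and 1.49. The Acads and Acadm values did not overlap between groups.

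The citric acid cycle moved the same way, with 13 of 15 genes lower (86.7%) and 0 higher. The respiratory chain with ATP synthase had 22 of 27 lower (81.5%) and 0 higher, beside 14% of all genes lower. A saturated spot was present in 11 of the 15 and 21 of the 27 genes, and the other 4 and 6 all fell, with medians of -2.44 and -2.54. Dlst, a subunit of the 2-oxoglutarate dehydrogenase complex, was at 4.65, 6.09 and 6.46 in HF20 and 2.42, 3.81 and 4.10 in HF75 and fell by 2.32 ± 0.32 (SE; limma, adjusted p = 0.0174). Suclg1 (succinyl-CoA ligase) fell by at least 2.36, and the citrate synthase gene Cs had a difference of -0.87 (limma, adjusted p = 0.0562), both being saturated on 4 HF20 arrays. Ndufv2 of complex I was at 2.77, 4.43 and 5.43 in HF20 and 1.28, 1.78 and 2.63 in HF75, with no overlap. It fell by 2.46, and Cyc1 of complex III, saturated on 4 HF20 arrays, fell by at least 2.21. Glucose uptake and glycolysis had 10 of 15 genes lower (66.7%, beside 14% of all genes). Hk2 fell by 2.62 and Slc2a4 by 2.61. Outside that list, Gys1, glycogen synthase of muscle and fat, fell by 4.59. With the floor its drop was 3.40, as 1 of 6 HF75 arrays was well above background. Adrb3, Dlst and Slc2a4 were saturated on 1 HF20 array each.

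Leaving out Week 3 kept a part of these calls. Lower without it were 2 of 13 regulators, 6 of 17 adrenergic and lipolysis genes and 8 of 19 of lipogenesis and triglyceride synthesis. So were 2 of 19 of cholesterol, 13 of 20 of fatty acid oxidation and 10 of 15 of the citric acid cycle. The respiratory chain had 12 of 27 lower and glucose use 7 of 15, and 0 genes of these lists were higher. Beside these counts stand 3.77% of all genes lower and 1.22% higher. Of the genes named above, Ppargc1a, Ucp3, Acot11, Ppara, Cebpa, Adrb3, Plin1, Mlxipl, Thrsp, Scd1, Dgat2, Fdft1, Slc25a20, Acads, Acsl1, Dlst, Suclg1, Ndufv2, Cyc1, Hk2 and Gys1 still fell. Dio2, Elovl3, Ebf2, Cebpb, Esrra, Acly, Hmgcs1, Cpt1b, Acadm and Slc2a4 kept their direction and no longer passed. Their adjusted p values ran from 0.0506 (Elovl3) to 0.0796 (Cebpb) by limma. Those of the genes that still fell lay between 0.0483 and 0.05 (limma), so the split between the sets rests on a narrow margin.

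These mitochondrial lists were also lower where both arrays were dim. All 27 respiratory chain genes, all 20 of fatty acid oxidation, all 15 of the citric acid cycle and all 14 thermogenic effectors were lower in HF75 in both Week 9 and Week 18, as were 14 of 15 glycolytic genes, beside 26.5% of all genes (26.2% were higher in both weeks). The medians over Weeks 9 and 18 were -0.95, -1.26, -1.23, -1.07 and -1.09 in the same order, and 0.01 over all genes. No single gene of these lists passed in those 2 weeks alone. The HF75 array was dimmer than the HF20 array in both weeks (35.1 against 43.2 and 75.2 against 97.5 units).

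**Figure D4:**
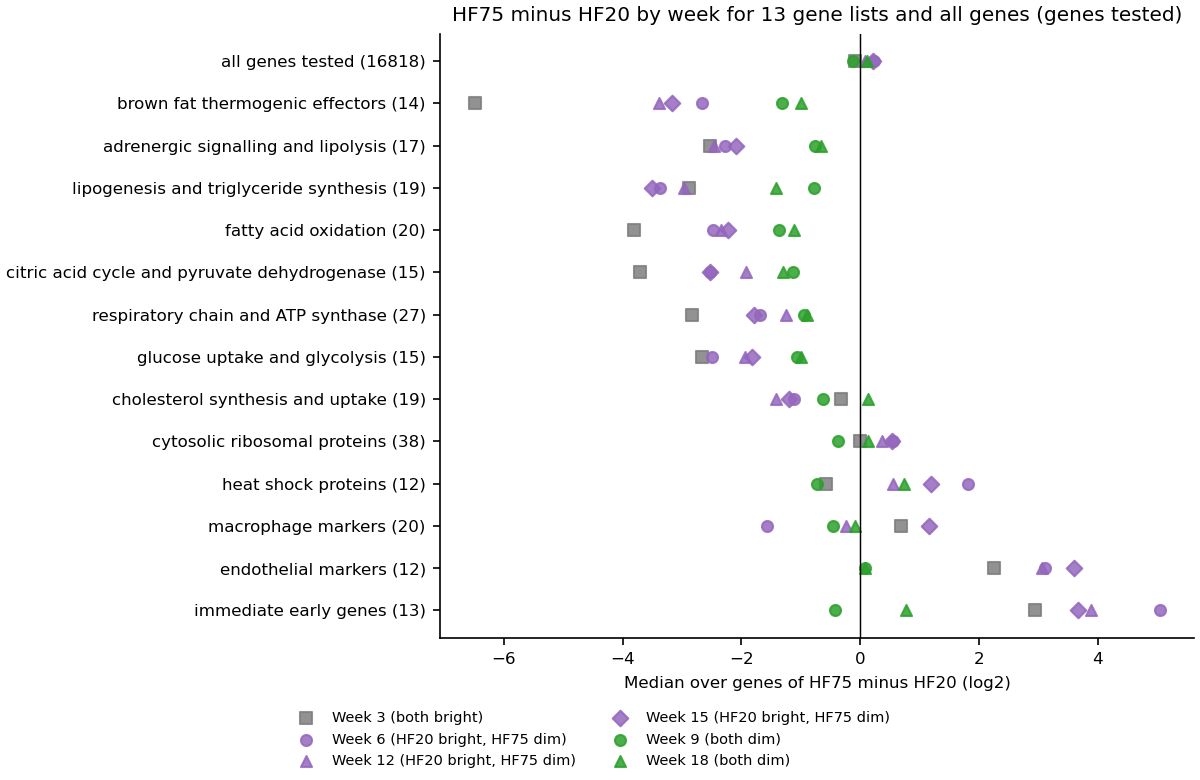
Median over the tested genes of HF75 minus HF20 (log2, horizontal axis) for each week, by gene list (vertical axis, with the number tested). For mitochondrial lists every week lies left of 0, with Weeks 9 and 18 (green) nearest to it, whereas immediate early and endothelial genes are right of 0 in Weeks 3, 6, 12 and 15. In Weeks 9 and 18 endothelial genes lie at 0.07 and 0.08 and immediate early genes at -0.43 and 0.77.

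Immediate early and endothelial genes moved the other way. Of 13 immediate early genes, which cells switch on within minutes of a stimulus, 8 rose (61.5%, beside 9.92% of all genes) and 0 fell. Their median was 2.45 over all weeks, -0.43 in Week 9 and 0.77 in Week 18. Fos was at -2.79, -0.16 and 4.53 in HF20 and 3.66, 5.28 and 5.42 in HF75, rising by 4.28 ± 1.04 (SE; limma, adjusted p = 0.0281) and by 5.37, 7.57, 6.46 and 5.62 in Weeks 3, 6, 12 and 15. In Weeks 9 and 18 its differences were -0.16 and 0.79. Zfp36, which shortens inflammatory messages, rose by 3.09. Without Week 3, 0 of the 13 passed.

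Among the genes that passed with the same sign in at least 5 weeks, Il6, an inflammatory cytokine, had the highest difference. It was at -7.58, -4.14 and 2.89 in HF20 and 0.36, 2.82 and 5.92 in HF75, rising by 6.05 ± 1.70 (SE; limma, adjusted p = 0.0393), with adjusted p = 0.0854 without Week 3. The rise was in Weeks 3, 6, 12 and 15 (8.12, 9.81, 8.92 and 10.66), and Weeks 9 and 18 had -1.73 and 0.51, so the groups overlapped. Of its HF20 arrays 4 of 6 were well above background, and with the lowest signal well above background as a floor the difference was 5.58. Cxcl2, which attracts neutrophils, was at -8.34, -5.64 and -0.32 in HF20 and -0.72, 0.51 and 2.76 in HF75. It rose by 5.85 ± 1.03 (SE; limma, adjusted p = 0.0178) in 6 of 6 weeks, or by 5.18 with the floor, as 3 of 6 HF20 arrays were well above background. Of 24 chemokine genes tested, a list chosen after the values were seen, 7 passed (29.2%, beside 23.9% of all genes). The 5 that rose were Cxcl2, Ccl3 (4.90), Ccl4 (4.29), Cxcl1 (3.45) and Cxcl16 (1.85), and the 2 that fell were Ccl25 and Ccl27a. Without Week 3, 1 of the 24 passed, Cxcl2. Tnf rose by 3.28, while 0 of the other 19 macrophage markers passed. In LFC arrays the bright minus dim difference was -10.2 for Il6, -6.00 for Cxcl2 and -6.94 for Fos, opposite to their dose difference.

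The promoters of Il6 and Cxcl2 are printed because these cytokine genes had the highest differences before a floor was set and are well-known targets of the factor NF-kB. The sequences are the 250 bases before the start of each gene in RefSeq, build GRCm38.p6, plus strand, in lower case, with a match to GGGANTTTCC (searched on both strands, N any base) in capitals. The match was looked for after the values were seen, and 117 of 32851 promoters of this length (0.356%) hold it.
Il6, chr5:30012864-30013113: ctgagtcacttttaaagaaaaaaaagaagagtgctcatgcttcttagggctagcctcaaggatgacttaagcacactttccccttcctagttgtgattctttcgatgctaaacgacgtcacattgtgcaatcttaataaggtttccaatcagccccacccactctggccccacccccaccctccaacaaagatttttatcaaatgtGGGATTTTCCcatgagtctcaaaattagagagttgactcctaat
Cxcl2, chr5:90903649-90903898: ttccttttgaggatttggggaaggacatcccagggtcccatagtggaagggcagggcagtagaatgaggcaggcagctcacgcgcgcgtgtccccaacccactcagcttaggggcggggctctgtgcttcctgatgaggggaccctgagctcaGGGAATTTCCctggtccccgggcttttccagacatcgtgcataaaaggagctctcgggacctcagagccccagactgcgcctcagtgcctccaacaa

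Of 12 endothelial markers, 8 rose (66.7%, beside 9.92% of all genes) and 0 fell, with a median of 1.98, and of 0.06 over Weeks 9 and 18. Cdh5, the cadherin of vessel walls, was at 1.80, 2.33 and 5.90 in HF20 and 5.59, 6.16 and 6.39 in HF75, rising by 2.70 ± 0.62 (SE; limma, adjusted p = 0.0247), and Emcn rose by 2.27. The 2 dim HF20 arrays, of Weeks 9 and 18, lay near the level of HF75. Without Week 3, 0 of the 12 passed. Among 12 heat shock genes 1 rose, Hspb1 (1.53), which is 8.33% beside 9.92% of all genes. Lepr, the leptin receptor (5.54), and Tgm5 (5.45) were among the 8 highest differences, both with opposite signs in Weeks 9 and 18. Lepr was well above background on 3 of 6 HF20 arrays and its difference was 4.59 with the floor, whereas Tgm5 was above background on all 12 arrays.

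**Figure D5:**
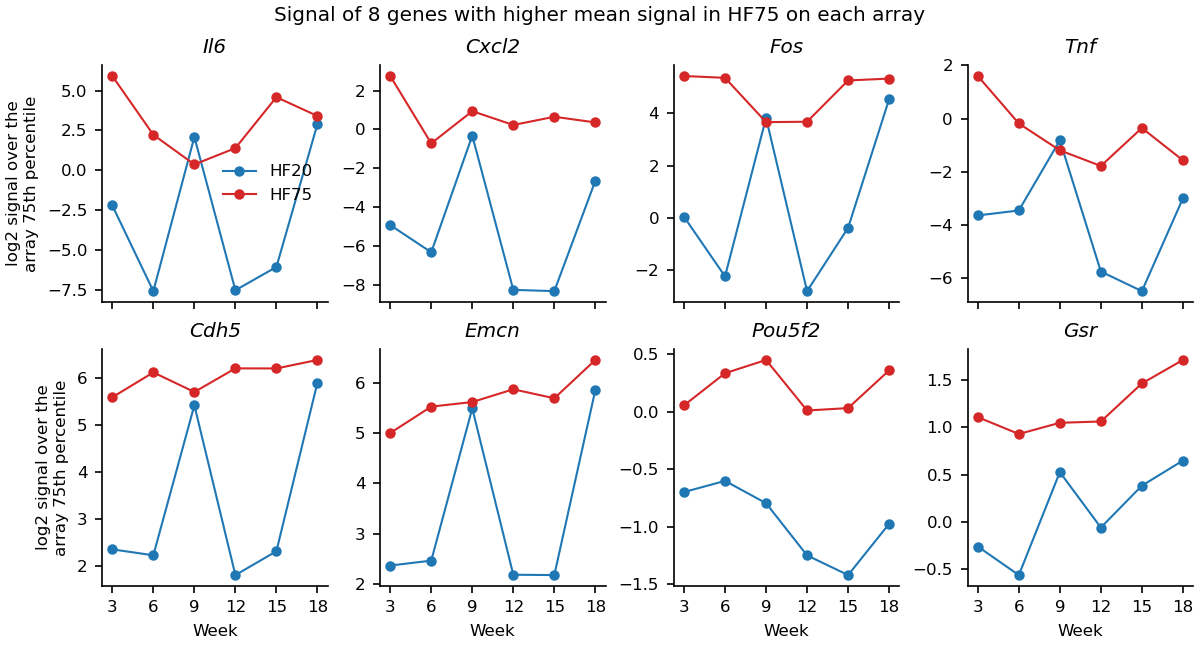
Log2 signal relative to the array's 75th percentile for 8 genes with a higher mean in HF75, on each HF20 (blue) and HF75 (red) array, by week. Il6, Fos, Cdh5 and Emcn of HF20 come near or reach the HF75 level in Weeks 9 and 18, while Pou5f2 and Gsr keep a gap in every week.

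Pou5f2 and Gsr were named for their steadiness after the values were seen, so that steadiness is no support for them. Of the genes that passed, 1026 were higher in HF75 in all 6 weeks. Pou5f2, a POU domain transcription factor gene, was at -1.42, -0.88 and -0.60 in HF20 and 0.01, 0.20 and 0.45 in HF75, with no overlap. It rose by 1.16 ± 0.22 (SE; limma, adjusted p = 0.0185), with weekly differences of 0.75 to 1.45 that included 1.25 in Week 9 and 1.34 in Week 18. Gsr, glutathione reductase, rose by 1.11, with differences of 0.52 to 1.50 in the 6 weeks. The LFC bright minus dim difference was -0.50 for Pou5f2 and 0.01 for Gsr. Without Week 3, Pou5f2 (adjusted p = 0.049, limma) and Cxcl2 (0.0494) passed, and the other genes named as higher did not.

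Muscle signal stood out on single arrays of both groups. The mean of 19 skeletal muscle markers was 3.64 and 4.52 on the HF20 arrays of Weeks 3 and 15 and 4.05 on the HF75 array of Week 12, against -3.02 to 0.53 on the other 9 arrays, and 0 of the 19 passed. Erythroid markers averaged 1.03 to 1.75 on the bright HF20 arrays and 5.17 and 5.05 on the dim ones of Weeks 9 and 18. In HF75 they averaged 0.94 on the bright array of Week 3 and 2.85 to 5.73 on the dim arrays, and 0 of 5 passed. Of the 5, 2 had a saturated spot on at least 1 array. Hbb-bt, a globin gene, was saturated on 4 HF20 and 4 HF75 arrays, so the means of such arrays are lower limits. Of 7 white adipocyte markers tested 4 fell and 1, Mest (1.52), rose, together 71.4% beside 23.9% of all genes. Retn fell by 2.22, Nnmt fell by 1.28 and Adipoq, the hormone adiponectin, saturated on 4 HF20 arrays, fell by at least 2.52. Leptin, Lep, fell by 3.65, or by 2.52 with the floor, as 1 of 6 HF75 arrays was well above background. Without Week 3 the first 3 still fell and Lep did not pass (limma, adjusted p = 0.0512). Of 20 matrix genes 2 passed (10%, below the 23.9% of all genes). Timp1 rose by 1.77 and Mmp2 fell by 1.12, and neither passed without Week 3. The part of these cells in the dose difference was not tested.

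Other lists are read against the 23.9% of all genes that passed. Of 17 genes of the xenobiotic and antioxidant response 4 fell (23.5%): catalase, Cat (-1.49), the mitochondrial superoxide dismutase Sod2 (-1.05, saturated on 4 HF20 arrays), Cyp2e1 (-2.21) and Srxn1 (-0.84). Without Week 3, 1 of them passed, Cyp2e1. Of 13 amino acid and stress response genes 4 fell (30.8%), Vldlr (-2.77), Phgdh (-1.51), Asns (-1.22) and Atf5 (-1.09), and without Week 3 Vldlr and Phgdh passed. Of 13 clock genes 2 fell (15.4%), among them Hlf (-1.85), which did not pass without Week 3 and had differences of 0.51 in Week 9 and -0.50 in Week 18. Of 4 nerve and Schwann cell markers S100b (-1.83, saturated on 1 HF20 array) and Mbp (-1.51) fell, and 0 passed without Week 3. Rps19 (-1.77), a gene with near-identical copies that a probe may also bind, fell among 38 ribosomal protein genes, whose median was 0.23. No gene passed among 16 of the cell cycle and 16 lymphocyte markers. Of 1077 olfactory receptor genes on the array, which fat is not known to use, 116 had enough signal to be tested. Of these 116, 8 rose (6.9%, beside 9.92% of all genes), 6 rose without Week 3, and the median of the 116 was 1.09.

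With the 6 weekly differences fitted against week, 0 genes passed (limma, smallest adjusted p = 0.999; 400 had an unadjusted p under 0.05).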

How the data were processed

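Total RNA of brown adipose tissue was labelled with Cy3 and hybridised to 1-colour Agilent mouse arrays. The deposited scanner files hold spot intensity values that the authors obtained with Feature Extraction (9.1 in the submitters' processing notes, 10.5.1.1 in the file headers), corrected for background and left unscaled. A series-wide deposited table gives the authors' log2 ratios to each time point's LFC array and served only as an alternative. Its Week 15 columns follow the scanner values in array order and not by probe name (correlation 0.999 against 0.00067), so it was also read without Week 15 and in array order. No column was left unmapped (0).

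Here log2 of the processed signal minus the array's 75th percentile was used. Control spots and spots with an outlier mark were left out (at most 0.153% of spots an array, so 83 genes lack a value on an array), and spots of a probe were averaged. Of 40628 probes, 28136 were named by accession, 4982 by symbol and 1406 by synonym in RefSeq (GRCm38.p6), and 6104 kept the file's name. For each of 29147 gene names the brightest probe on average was used, and a gene was tested if 6 or more of the 12 arrays had it well above background. HF75 was compared with HF20 in limma 3.58.1 (two-sided; R 4.3.3, files read through the data.table package, version 1.17.8), with the week as a block and Benjamini-Hochberg adjustment over 16818 genes at 0.05. Deviations from the group means of same-week arrays correlated at -0.15 to 0.35. The steps were tested on simulated data without unequal brightness, saturation or a deviating array, so that test does not cover these features of the arrays. Named genes were the 8 highest and 8 lowest differences with the same sign in at least 5 weeks, the 2 smallest p values of each of 24 lists, fixed anchor genes and the 3 smallest p values against week, of which the text gives a part; others are said to be chosen after their values were seen. Some genes that this rule selects are left out of the text. The members, lists and the boundary of 600 units were chosen with earlier results of these data known. The alternatives are given in the closing section. Few arrays and dim signal limit the precision.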

Additional observations from a re-analysis of the deposited data

Results flagged for a closer look

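Within each group of 6 arrays, the gap of the highest or lowest array to its neighbour was set against the group's range (Dixon's limit for 6 values) for the named genes, the list means and brightness, 212 sets of values in all, of which chance would mark about 11. It marked 19, and 13 of them were the array labelled HF75 of Week 3. Some sets, such as Cox8b and the chemokine genes, were chosen after their values were seen, so the chance count does not hold for them.

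On that array Ucp1 (-3.08 against 5.53 to 6.96 on the other HF75 arrays), Cox8b (-2.01), Elovl3 (-8.32), Ucp3 (-6.80), S100b (1.11) and Cs (4.51) were low and Ebf2 (0.66) was high. The mean log2 signals of the thermogenic effectors (-3.07), the brown fat regulators (-0.52), fatty acid oxidation (1.33) and nerve and Schwann cell markers (-0.93) were low there, and those of macrophage markers (1.73) and chemokine genes (2.23) were high.

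The mean of skeletal muscle markers was high on the HF75 array of Week 12 (4.05 against -2.17 to -0.21). In HF20, Ucp1 (8.32) and Fasn (8.50) were high in Week 9, Mest (-3.49) was low in Week 12, and Suclg1 (5.23) and the mean of nerve and Schwann cell markers (-0.57) were low in Week 18. On the bright HF20 arrays Ucp1, Fasn and Suclg1 were saturated. What sets these arrays apart was not tested.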

How the results depend on the processing

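The count of 4024 genes depended on Weeks 6, 12 and 15, the weeks of unequal brightness. Those weeks alone gave 6756, and leaving out each week in turn gave 0 to 5142: 839 without Week 3, 0 without Week 6, 12 or 15, 5142 without Week 9 and 4893 without Week 18. Without Week 6, 12 or 15 the smallest adjusted p was 0.0677, 0.0626 or 0.0705 (limma), and 2612, 2638 or 2445 higher and 2965, 2835 or 2807 lower genes had an unadjusted p under 0.05. The count was 0 with normexp (unadjusted p under 0.05 in 2748 higher and 2627 lower genes, limma), 0 with the deposited log2 values as they stand (2350 and 1476), 0 with those but for Week 15 (2519 and 2750), 0 with the brightness class (589 and 1589 unadjusted), 0 with the log2 75th percentile in the model (533 and 1449), 0 in Weeks 3, 9 and 18 (365 and 982), 0 in Weeks 9 and 18 (650 and 745), and 0 with the brightness class over 30 arrays (1258 and 1667) or 29 arrays without HF75 of Week 3 (646 and 660). It was 6419 with array weights and 8442 without the filter on dim probes, where 72.7% of calls were higher in HF75 instead of 41.5%. Without the week as a replicate block it was 4168, and 3496 of these were among the 4024. Quantile normalization (4152), the deposited table with Week 15 in array order (4020), the floor (4477) and every probe (5780) stayed within 1.5 times. So did the fits over all 30 arrays, with the week alone as a block (5585), or with a slide block (5850) or a scan day block (5592) added. The methods' t-test gave 3324 after adjustment, also within 1.5 times, and 6704 before. The fits of Weeks 9 and 18, of Weeks 6, 12 and 15 and those with the brightness class over 30 or 29 arrays, and 29 arrays alone (3349), were chosen after seeing the data. The slope against week gave 0 genes in all alternatives run. HF75 minus HF20 in the percent of spots well above background was -8.14 (lower in 6 of 6 weeks, exact sign-flip p = 0.03125), and the log2 difference in brightness ranged from -1.70 to -1.02 with a week left out.

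Over 79 named genes and their alternatives, 22 of 2279 values changed sign. In Weeks 9 and 18 alone these were Il6 (-0.61), Lepr (-0.093), Tgm5 (-0.065), Lipe (0.10) and Hlf (0.0058). With the brightness class over 29 arrays they were Il6 (-0.93), Fos (-0.43), Zfp36 (-0.44), Tnf (-0.29), Hspb1 (-0.43), Cxcl1 (-0.19), Ccl25 (0.18), Ccl27a (0.088) and Sqle (0.41), and over 30 arrays Hspb1 (-0.13) and Sqle (0.38). Normexp turned Prdm16 (-0.18), Sqle (0.42) and Mmp2 (0.043). The brightness class or Weeks 3, 9 and 18 gave 0.25 for Sqle, and the log2 75th percentile 0.33. The causes were not tested. Of 754 list medians, 31 moved by more than the spread between weeks. Those of several lists named above were among them with the brightness class over 29 arrays. Fatty acid oxidation went from -2.15 to -0.43, the citric acid cycle from -2.32 to -0.53 and the respiratory chain from -1.53 to -0.36. Lipogenesis and triglyceride synthesis went from -2.26 to -0.60 and thermogenic effectors from -2.87 to -0.48. Endothelial markers went from 1.98 to 0.02 and immediate early genes from 2.45 to -0.14.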
